A study of Mus musculus with 2 samples.

Results

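The 10 genes described here encode granzymes and perforin, the killing machinery that cytotoxic lymphocytes store in secretory granules: Gzma, Gzmb, Gzmc, Gzmd, Gzme, Gzmf, Gzmg, Gzmk, Gzmm and Prf1. They were taken by symbol from the 32285 genes of the count tables, and all 10 were found. Single-cell RNA sequencing (10x Genomics) was made of CD45-positive immune cells sorted by FACS from subcutaneous tumours of B16F10, a mouse melanoma line. There were 2 libraries, 1 per group. The IL4 library came from tumours of mice that had received bone-marrow-derived macrophages (BMDMs) treated with IL-4, and the control library from tumours of mice given BMDMs without treatment. Both are labelled wild type. The labels conflict in 1 place: the treatment given among the sample characteristics differs between the libraries and was used for grouping, while the protocol field names IL-4-treated BMDMs for both. No source used here gives ages, the number of mice behind each library or any pooling. With 1 library per group no test between groups was possible, cells are not replicates, and every interval below covers counting error only.

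Perforin, the product of Prf1, forms pores in the membrane of a target cell and so lets granzymes enter its cytosol. Granzyme B, a serine protease that cuts after aspartate, activates caspases and Bid and thereby starts apoptosis. Granzymes A and K cut after arginine or lysine, granzyme M prefers methionine or leucine, and the granzymes encoded by Gzmc, Gzmd, Gzme, Gzmf and Gzmg belong to a gene cluster expanded in rodents. NK cells and CD8 T cells are the main cells known to carry these transcripts, and activation of T cells induces many of them.

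The 5 clustered genes are set out first, because the most uneven values below belong to them. On mm10 (GENCODE M21 gene models), Gzme, Gzmd, Gzmg, Gzmf, Gzmc and Gzmb lie in this order on the minus strand of chromosome 14 within 145 kb, at chr14:56117626-56262260. Gzma and Gzmk lie on chromosome 13, Gzmm and Prf1 on chromosome 10. The 120 bases before each RefSeq transcription start (GRCm38.p6, minus strand, written 5′ to 3′) are shown for the 5 genes, at chr14:56234658-56234777 for Gzmc, chr14:56132594-56132713 for Gzmd, chr14:56120626-56120745 for Gzme, chr14:56211408-56211527 for Gzmf and chr14:56159580-56159699 for Gzmg. Capitals mark the window closest to the palindromic cAMP response element TGACGTCA.
Gzmc: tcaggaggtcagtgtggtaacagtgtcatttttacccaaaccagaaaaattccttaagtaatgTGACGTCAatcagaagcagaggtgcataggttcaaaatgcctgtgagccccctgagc
Gzmd: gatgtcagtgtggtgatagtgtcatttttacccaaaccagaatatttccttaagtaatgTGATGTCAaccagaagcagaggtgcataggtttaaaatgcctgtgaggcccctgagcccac
Gzme: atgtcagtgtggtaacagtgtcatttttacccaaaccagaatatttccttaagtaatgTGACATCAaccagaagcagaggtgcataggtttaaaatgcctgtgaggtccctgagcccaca
Gzmf: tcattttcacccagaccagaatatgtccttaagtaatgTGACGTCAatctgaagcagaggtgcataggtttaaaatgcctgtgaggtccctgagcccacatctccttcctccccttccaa
Gzmg: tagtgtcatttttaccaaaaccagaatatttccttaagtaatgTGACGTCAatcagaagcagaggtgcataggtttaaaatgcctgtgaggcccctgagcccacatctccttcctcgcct
The element is complete in Gzmc, Gzmf and Gzmg. Counted from its first base, Gzmd has the substitution C4T and Gzme the substitution G5A. It lies 57 to 50 bases before the start in Gzmc and 82 to 75 bases before it in Gzmf. Over the 250 bases before the start, promoter identity between pairs of these 5 genes ranged from 71.5% (Gzmc and Gzmf) to 94.8% (Gzmd and Gzme), against 46.0% to 54.0% for the other 35 pairs of members. Within that window, searched on both strands, 3 of 10 members held TGACGTCA, which 1.62% of all 27025 promoters hold. The Runx motif TGTGGT was found in 9 of 10 members and 14.2% of all promoters, and the Ets motif AGGAAGT in 6 members (the 5 clustered genes and Prf1) and 7.80% of all. The AP-1 motif TGAGTCA was found in Gzmb alone of the members, and in 4.43% of all promoters. The T-box motif AGGTGTGA (1.14% of all) and the TATA motif TATAAA (13.0%) were found in none of the 10. These matches describe letters in a window and not bound sites. In the last 500 bases of the transcripts (GENCODE M21), Gzmd and Gzme each shared 17 of 421 windows of 80 bases with the other (4.04%), and Gzmg shared 9 (2.14%) with Gzmn, another gene of the cluster. The other 7 members shared none of that length with any gene, and none of the 10 shared a window of 100 bases. Reads as short as 80 bases could thus match both Gzmd and Gzme, or both Gzmg and Gzmn. The values of Gzmd, Gzme and Gzmg are uncertain to that extent. No source used here names the library chemistry.

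After filtering, 13762 of 13873 IL4 barcodes and 8937 of 8994 control barcodes were kept, with medians of 8256 UMIs in IL4 and 9207 UMIs in control (unique molecular identifiers, 1 per captured transcript). Cells were assigned by marker UMIs, with no member gene in any gate. The NK gate held 487 IL4 and 194 control barcodes (3.54% of the kept barcodes in IL4 and 2.17% in control), the CD8 T gate 191 IL4 and 97 control, the Foxp3 T gate 17 IL4 and 19 control, and a gate of other T cells 117 IL4 and 82 control. A further 947 IL4 and 444 control barcodes carried T or NK markers together with over 20 UMIs per 10000 of 8 myeloid genes and were kept apart as mixed. No doublet caller was run, so doublets of similar cells remain in every gate. All 7 NK markers and all 6 markers of the CD8 T gate were detected in both libraries. The libraries shared 23 barcode sequences, of which 0 in IL4 and 1 in control fell in a T or NK gate. Barcodes with only Y-linked transcripts, among those with Xist or Y-linked transcripts but not both, made up 10.9% in IL4 and 36.8% in control, so cells from both sexes are present in unequal shares.

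Transcripts of 9 of the 10 members lay mostly in T, NK and mixed barcodes. Levels are given as CPM, the UMIs of a gene divided by all UMIs of the gate and scaled to a common total. T and NK barcodes, mixed ones included, held 95.2% of the 44488 member UMIs in IL4 and 96.3% of the 19996 in control. NK cells alone held 43.5% in IL4 and 29.9% in control, CD8 T cells 12.4% in IL4 and 25.6% in control, and mixed barcodes 34.8% in IL4 and 38.8% in control. Gzmm was the exception: 51.2% of its 160 UMIs in IL4 and 62.2% of its 82 UMIs in control lay outside T, NK and mixed barcodes, and its macrophage level was 46.0% of the whole-library level in IL4 and 86.0% in control. Mixed barcodes cannot be assigned to 1 cell type, so their UMIs stay outside the comparisons of NK and T cells. Fewer cells of a type and less RNA per cell cannot be told apart in whole-library levels, which is why levels are given per gate.

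**Figure D1:**
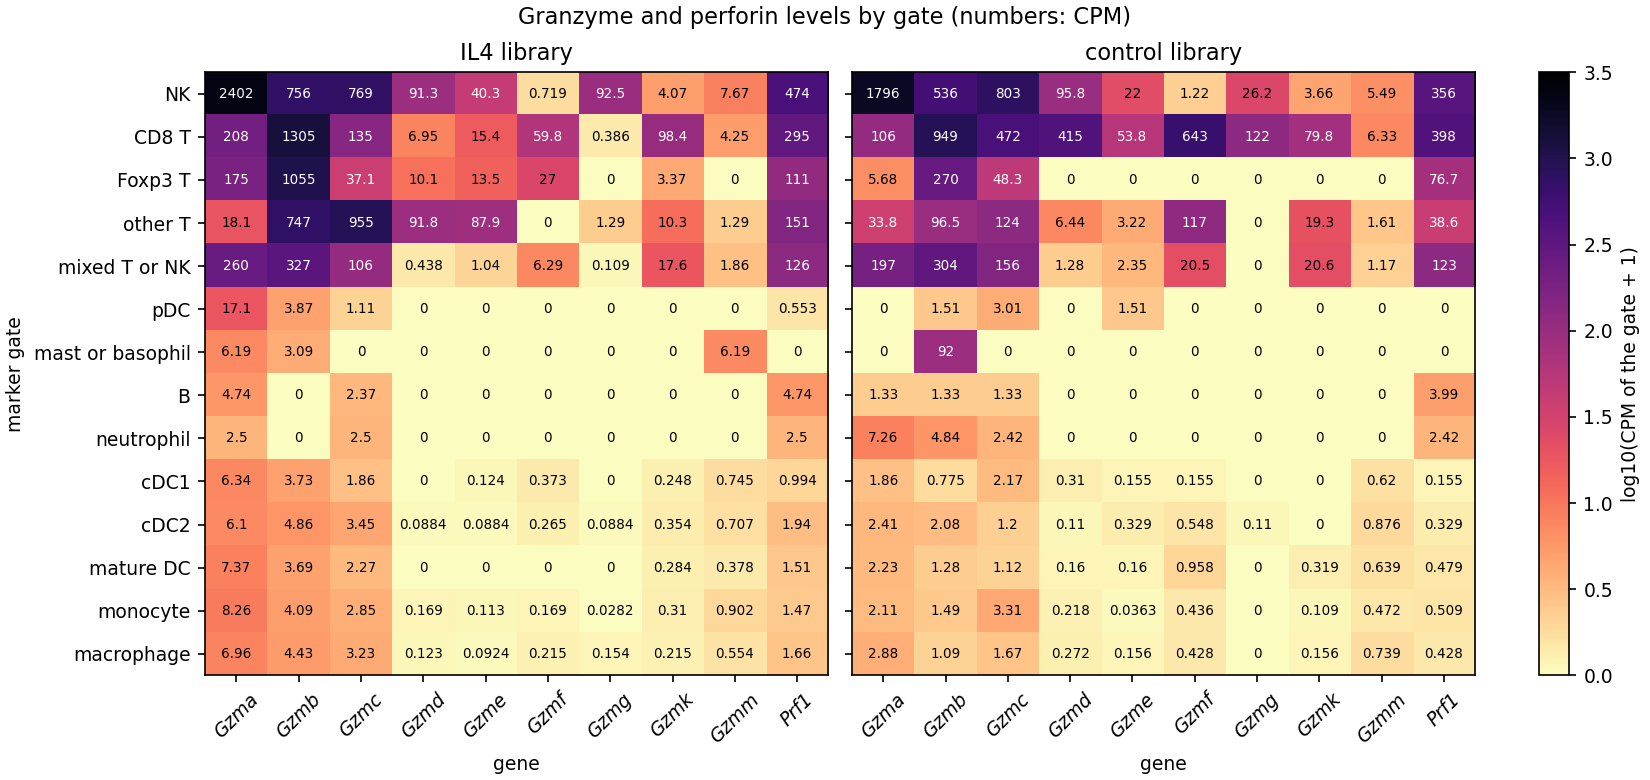
Levels of the 10 genes in each marker gate, as CPM, the UMI counts of the gene scaled to a common UMI total per gate, with the IL4 library on the left and the control library on the right. Colour is log10(CPM + 1) and the printed numbers are CPM. Gzma is highest in the NK gate (2402 CPM in IL4 and 1796 CPM in control), Gzmb in the CD8 T gate (1305 CPM in IL4 and 949 CPM in control), and conventional and mature dendritic cells, monocytes and macrophages show at most 8.26 CPM of any member.

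In macrophages and the other myeloid gates the members stood at low levels, which serve as the background for shares of barcodes. Macrophages were taken as a cell type that should lack Gzma, and 6.06% of IL4 and 2.99% of control barcodes had a Gzma UMI (median depths 9257 UMIs in IL4 and 10594 UMIs in control). Their Gzma level was 6.96 CPM in IL4 and 2.88 CPM in control, which is 5.67% of the level over each whole library in IL4 and 5.29% in control. For Gzmb it was 4.43 CPM in IL4 and 1.09 CPM in control, and for Prf1 1.66 CPM in IL4 and 0.428 CPM in control. In macrophages 4 of the 5 members with enough UMIs to count were at least 1.5-fold higher in IL4 (Gzma, Gzmb, Gzmc and Prf1) and 0 lower, while 2.14% of all genes were higher and 2.77% lower. Over all kept cells of the libraries the same 4 genes stood at 1.24-fold to 2.25-fold, and the NK and CD8 T gates held larger shares of the IL4 barcodes; their part in the macrophage values was not tested.

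Plasmacytoid dendritic cells, for which Gzmb expression is described in humans, had 3.87 CPM of Gzmb in IL4 (7 UMIs over 133 barcodes) and 1.51 CPM in control (1 UMI over 46 barcodes). After thinning every barcode to 2000 UMIs, 2.26% of IL4 pDCs had a Gzmb UMI and 0 of the control pDCs, where the count of 0 allows a share of up to 6.52%. Their Gzma level of 17.1 CPM in IL4 rested on 1 barcode that held 22 of 31 UMIs and also carried 4 Nkg7 and 2 NK marker UMIs. In control mast cells or basophils, 35 Gzmb UMIs all lay in 1 barcode with 16 UMIs of Cpa3, the mast cell carboxypeptidase, and 9 of Il4. This barcode had 0 T or NK marker UMIs, and its type was not resolved further. In control monocytes 1 barcode held 50.5% of the Gzmc UMIs.

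In NK cells the widely carried members were Gzma, Gzmb and Prf1, and all 3 were higher in IL4 by less than 1.5-fold. Gzma, the gene of the tryptase-like granzyme A, reached 2402 CPM in IL4 (95% interval 2356 to 2449.9) and 1796 CPM in control (1732 to 1862), a fold of 1.34 (1.28 to 1.39). Gzmb was at 756 CPM in IL4 (730.0 to 783) and 536 CPM in control (502 to 573), a fold of 1.41 (1.31 to 1.52). Prf1 was at 474 CPM in IL4 (453 to 495) and 356 CPM in control (327 to 386), a fold of 1.33 (1.21 to 1.46). For each of the 3 the counting intervals of the libraries do not overlap, yet the spread between mice is unknown. Gzmm was at 7.67 CPM in IL4 and 5.49 CPM in control, with 32 UMIs in IL4 and 9 in control and a fold interval of 0.651 to 3.33. Gzmk, which encodes the related granzyme K, was nearly absent from NK cells at 4.07 CPM in IL4 and 3.66 CPM in control, and 9 of 487 IL4 and 5 of 194 control barcodes had a UMI.

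The clustered genes in NK cells turned on single barcodes. Gzmc was at 769 CPM in IL4 and 803 CPM in control, a fold of 0.958 (0.898 to 1.02), but 1 control barcode held 973 of 1315 UMIs (74.0%) and 1 IL4 barcode 793 of 3207 (24.7%). Without the highest barcode of each library Gzmc stood at 585 CPM in IL4 and 214 CPM in control, a fold of 2.73 (2.44 to 3.07). That step takes 1 of 194 control but 1 of 487 IL4 barcodes, so it tends to lower control levels more. Over all genes in NK cells it raised the share higher in IL4 from 5.46% to 7.71%. The share lower fell from 6.97% to 4.94%. Gzmb without its highest barcodes was at 699.6 CPM in IL4 and 376 CPM in control (1.86-fold, 1.70 to 2.03), and Prf1 at 458 CPM in IL4 and 314 CPM in control (1.46-fold). Gzmd was at 91.3 CPM in IL4 and 95.8 CPM in control, with 88.5% of the UMIs in IL4 and 97.5% in control in 1 barcode. Gzmg stood at 92.5 CPM in IL4 and 26.2 CPM in control, and its highest barcode held 385 of 386 UMIs in IL4 and all 43 in control. Gzmf was next to absent from NK cells, with 3 UMIs in IL4 and 2 in control.

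By the 1.5-fold rule on log2(CPM + 1), 2 of the 9 members with at least 20 UMIs were higher in IL4 NK cells (Gzme and Gzmg) and 0 lower, against 5.46% higher and 6.97% lower among the 10315 genes tested. Both calls rest on the same IL4 barcode, which held 92.3% of the Gzme and 99.7% of the Gzmg UMIs. The members' median log2 ratio was 0.42, and that of all genes -0.03. Without the highest barcode per gene, 4 of the 6 members still counted were higher and 0 lower, against 7.71% of all genes higher and 4.94% lower under the same step. When NK barcodes with any T marker UMI were left out (354 IL4 and 136 control remained), 0 of 7 members were higher and 4 lower, against 6.79% of all genes higher and 9.10% lower. That gate loses the highest IL4 barcode, with 4 T marker UMIs, and keeps the highest control one, with 0. Gzma, Gzmb and Prf1 then had log2 ratios of 0.50, 0.13 and 0.22.

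**Figure D2:**
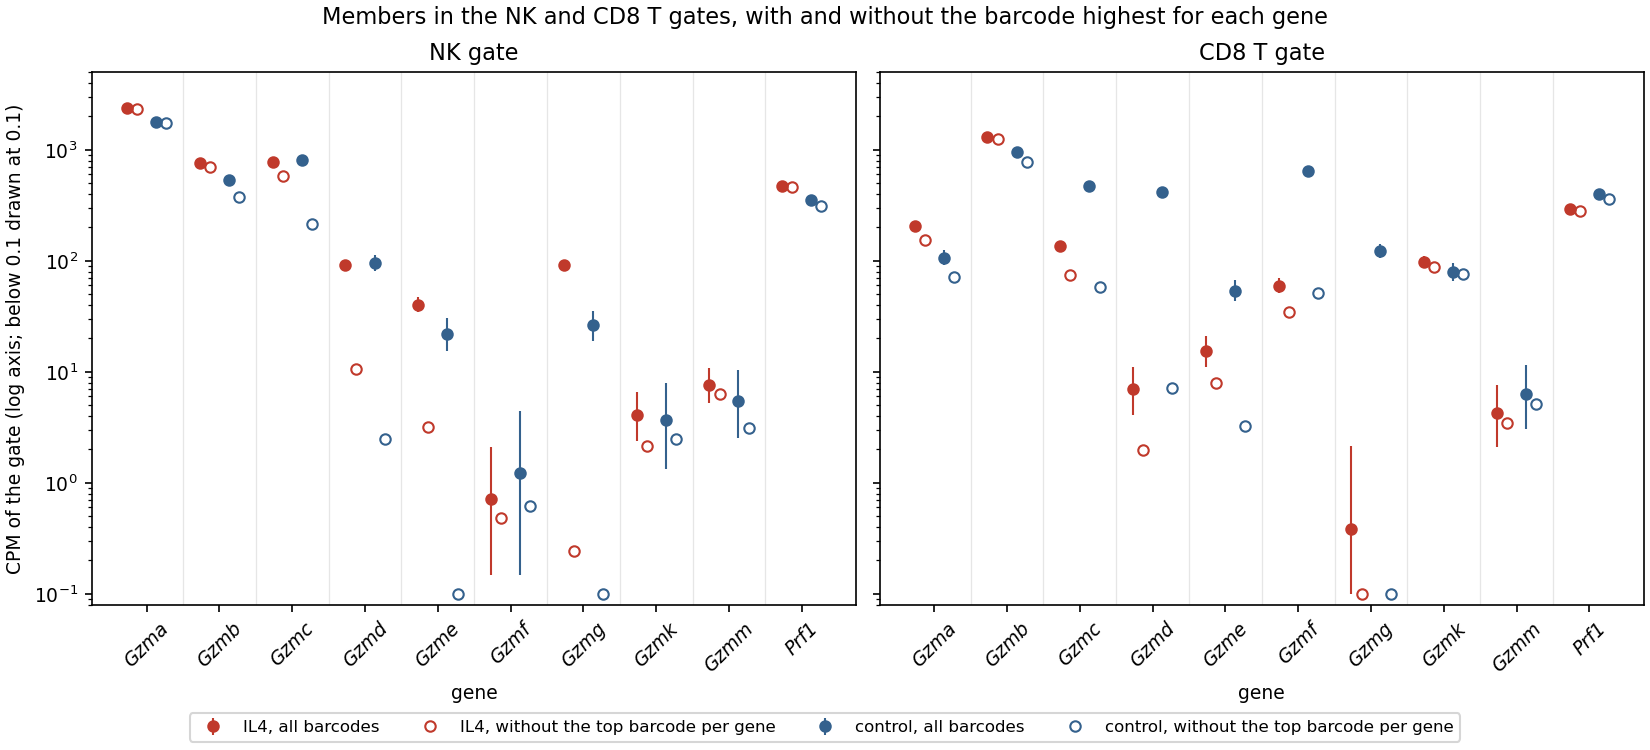
CPM of each member in the NK gate (left panel) and the CD8 T gate (right panel), IL4 in red left of control in blue, on a log axis. Filled points are all barcodes with exact 95% Poisson intervals, and open points leave out the barcode with the most UMIs of that gene. For Prf1 the open points lie close to the filled ones in both gates (458 CPM without and 474 CPM with the highest barcode in IL4 NK cells), while Gzmd in control CD8 T cells lies at 7.16 CPM without that barcode and at 415 CPM with it.

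In CD8 T cells summed levels of Gzmb and Gzma were higher in IL4, the fold interval of Gzmk included 1, and the clustered genes again followed single barcodes. Prf1 was lower by summed level, a difference that was not seen at equal depth, as given below. Gzmb reached 1305 CPM in IL4 (1262 to 1350.1) and 949 CPM in control (902 to 999), a fold of 1.37 (1.29 to 1.46), or 1.62 without the highest barcodes. Gzma was at 208 CPM in IL4 and 106 CPM in control, a fold of 1.95 (1.64 to 2.34), with UMIs in 38 of 191 IL4 and 14 of 97 control barcodes, and its direction turned in cells with only Y-linked transcripts. Prf1 lay the other way, at 295 CPM in IL4 and 398 CPM in control, a fold of 0.742 (0.667 to 0.826), or 0.788 without the highest barcodes. Gzmk was at 98.4 CPM in IL4 and 79.8 CPM in control, a fold of 1.23 (0.993 to 1.54). It was carried by 41.4% of barcodes in IL4 and 41.2% in control. Gzmm had 11 UMIs in IL4 and 10 in control.

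Among the clustered genes of CD8 T cells, the control values were the higher ones for all 5. Gzmc was at 135 CPM in IL4 and 472 CPM in control, Gzmd at 6.95 CPM in IL4 and 415 CPM in control, and Gzme at 15.4 CPM in IL4 and 53.8 CPM in control. Gzmf was at 59.8 CPM in IL4 and 643 CPM in control, and Gzmg at 0.386 CPM in IL4 and 122 CPM in control. A single control barcode of 43637 UMIs accounts for most of these control values, with 937 UMIs of Gzmf, 656 of Gzmc, 645 of Gzmd, 304 of Gzmb, 193 of Gzmg and 80 of Gzme. The members made up 6.63% of its UMIs, and it carried 168 T marker UMIs, 32 of Cd8a and 3 NK marker UMIs. Without the highest barcode of each library, Gzmc was at 74.6 CPM in IL4 and 57.9 CPM in control (1.29-fold, 0.996 to 1.68), Gzmd at 1.96 CPM in IL4 and 7.16 CPM in control (0.274-fold, 0.0747 to 0.856, from 5 UMIs in IL4 and 11 in control), Gzme at 7.85 CPM in IL4 and 3.25 CPM in control (2.41-fold, 0.878 to 8.22), Gzmf at 34.4 CPM in IL4 and 51.4 CPM in control (0.669-fold), and Gzmg at 0 in both.

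All 10 members could be counted in CD8 T cells: 1 was higher in IL4 (Gzma) and 5 lower (Gzmc, Gzmd, Gzme, Gzmf and Gzmg), against 6.51% higher and 6.73% lower among the 9865 genes tested. The gate leaves out an IL4 barcode with 34 Cd8a UMIs and 1 Cd4 UMI, which held 728 Gzmc and 68 Gzme UMIs. The whole IL4 gate held 349 Gzmc and 40 Gzme UMIs. A control barcode with 13 Cd8a UMIs and 1 Cd4 UMI, which held 68 Gzmc and 73 Gzmf UMIs, was left out too. The calls were not taken with these barcodes included. Without the highest barcode per gene the counts were 3 higher and 0 lower of 7, against 8.05% of all genes higher and 4.86% lower, and Gzmd was no longer counted. Here too the step takes a larger part of the control gate (1 of 97 barcodes) than of the IL4 gate (1 of 191). Leaving out T barcodes with any NK marker UMI gave 3 higher and 2 lower of 6, against 9.04% of all genes higher and 8.27% lower. After thinning to 2000 UMIs per barcode, the log2 ratio of Prf1 was -0.02, and that of Gzmb 0.86. The members' median log2 ratio was -1.11 and that of all genes 0.00. CD8 T cells that carried only Xist gave log2 ratios of 0.35 for Gzma, 0.20 for Gzmb and -0.64 for Prf1, over 132 IL4 and 51 control barcodes. Those with only Y-linked transcripts, 30 in IL4 and 29 in control, gave -1.33 for Gzma, 0.41 for Gzmb and -0.21 for Prf1. Among NK cells the ratios were 0.47 for Gzma, 0.74 for Gzmb, 0.68 for Prf1 and 1.55 for Gzmc with only Xist, and 0.39, 0.33, 0.62 and 0.21 for the same genes with only Y-linked transcripts.

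Few cells stood behind the remaining T gates. Foxp3 marks regulatory T cells, which are known to use granzyme B in suppression. The Foxp3 T gate had Gzmb at 1055 CPM in IL4 (13 of 17 barcodes) and 270.0 CPM in control (9 of 19 barcodes), a fold of 3.91 (3.10 to 4.97). A single control barcode held 66.3% of those UMIs, and without the highest barcodes Gzmb was at 899 CPM in IL4 and 106 CPM in control, a fold of 8.45. Markers of other lymphocytes moved with it: Cd8a was found in 17.6% of the IL4 and 0 of the control barcodes, Cd8b1 in 23.5% in IL4 and 15.8% in control, and Cd4 in 64.7% in IL4 and 94.7% in control. Of the 7 NK markers 6 were detected in IL4 and 0 in control. In IL4, 1 barcode carried 16 NK marker UMIs and held 21 of the 313 Gzmb UMIs. The part of these markers in the Gzmb difference was not tested. Of the 4 members counted there, Gzma and Gzmb were higher and 0 lower, against 13.6% of all genes higher and 13.1% lower. The Gzma call rests on the same IL4 barcode with 16 NK marker UMIs, which held 51 of 52 Gzma UMIs and 3 of Foxp3. In the other T cells 5 of 8 members were higher (Gzmb, Gzmc, Gzmd, Gzme and Prf1) and 3 lower (Gzma, Gzmf and Gzmk), against 9.27% of all genes higher and 10.7% lower. Here 1 IL4 barcode of 43091 UMIs held 728 of 739 Gzmc, 469 of 578 Gzmb and 100 of 117 Prf1 UMIs, and all 71 Gzmd and all 68 Gzme UMIs. It carried 34 UMIs of Cd8a and 1 of Cd4, and the Cd4 UMI kept it out of the CD8 T gate. Without the highest barcodes, Gzmb in other T cells was at 149 CPM in IL4 and 31.2 CPM in control (4.79-fold), and Gzmc at 15.1 CPM in IL4 and 15.6 CPM in control (0.966-fold). All 73 Gzmf UMIs of the control gate came from 1 barcode, which carried 13 UMIs of Cd8a and 1 of Cd4. For Gzma 1 control barcode held 18 of 21 UMIs, and without the highest barcodes it was at 14.4 CPM in IL4 and 4.93 CPM in control. The fold intervals of Gzma (0.252 to 1.10) and Gzmk (0.190 to 1.42) include 1. In mixed barcodes 0 of 9 members were higher and 3 lower (Gzmd, Gzme and Gzmf), against 2.25% of all genes higher and 2.80% lower. Single control barcodes held 7 of 12 Gzmd and 16 of 22 Gzme UMIs there, and without the highest barcodes the log2 ratio was -0.15 for Gzmd, 0.10 for Gzme and -1.21 for Gzmf. Gzmc in mixed barcodes had a fold of 0.676 (0.631 to 0.724), or 0.813 without the highest barcodes. Gzmb there had a fold of 1.08 (1.03 to 1.13) and Gzma a fold of 1.32 (1.25 to 1.39). Mixed barcodes held 43.0% of all Gzmb UMIs in IL4 and 51.5% in control.

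The concentration of the 4 genes Gzmd, Gzme, Gzmf and Gzmg ran through both libraries. Summed, they had 1505 UMIs in 129 IL4 barcodes and 2563 UMIs in 103 control barcodes. The highest barcode held 58.3% in IL4 and 72.4% in control, the highest 10 held 84.2% in IL4 and 94.6% in control, and 13 barcodes in each library reached 10 UMIs. The highest IL4 barcode was an NK cell by its markers (44013 UMIs in all, 27 NK marker UMIs), with 385 UMIs of Gzmg, 337 of Gzmd, 155 of Gzme and 0 of Gzmf. The highest control barcode, the CD8 T cell above, had Gzmf beside the other 3. Of the 8 highest barcodes in each library, those in the NK gate (2 in IL4 and 1 in control) had 0 Gzmf UMIs.

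**Figure D3:**
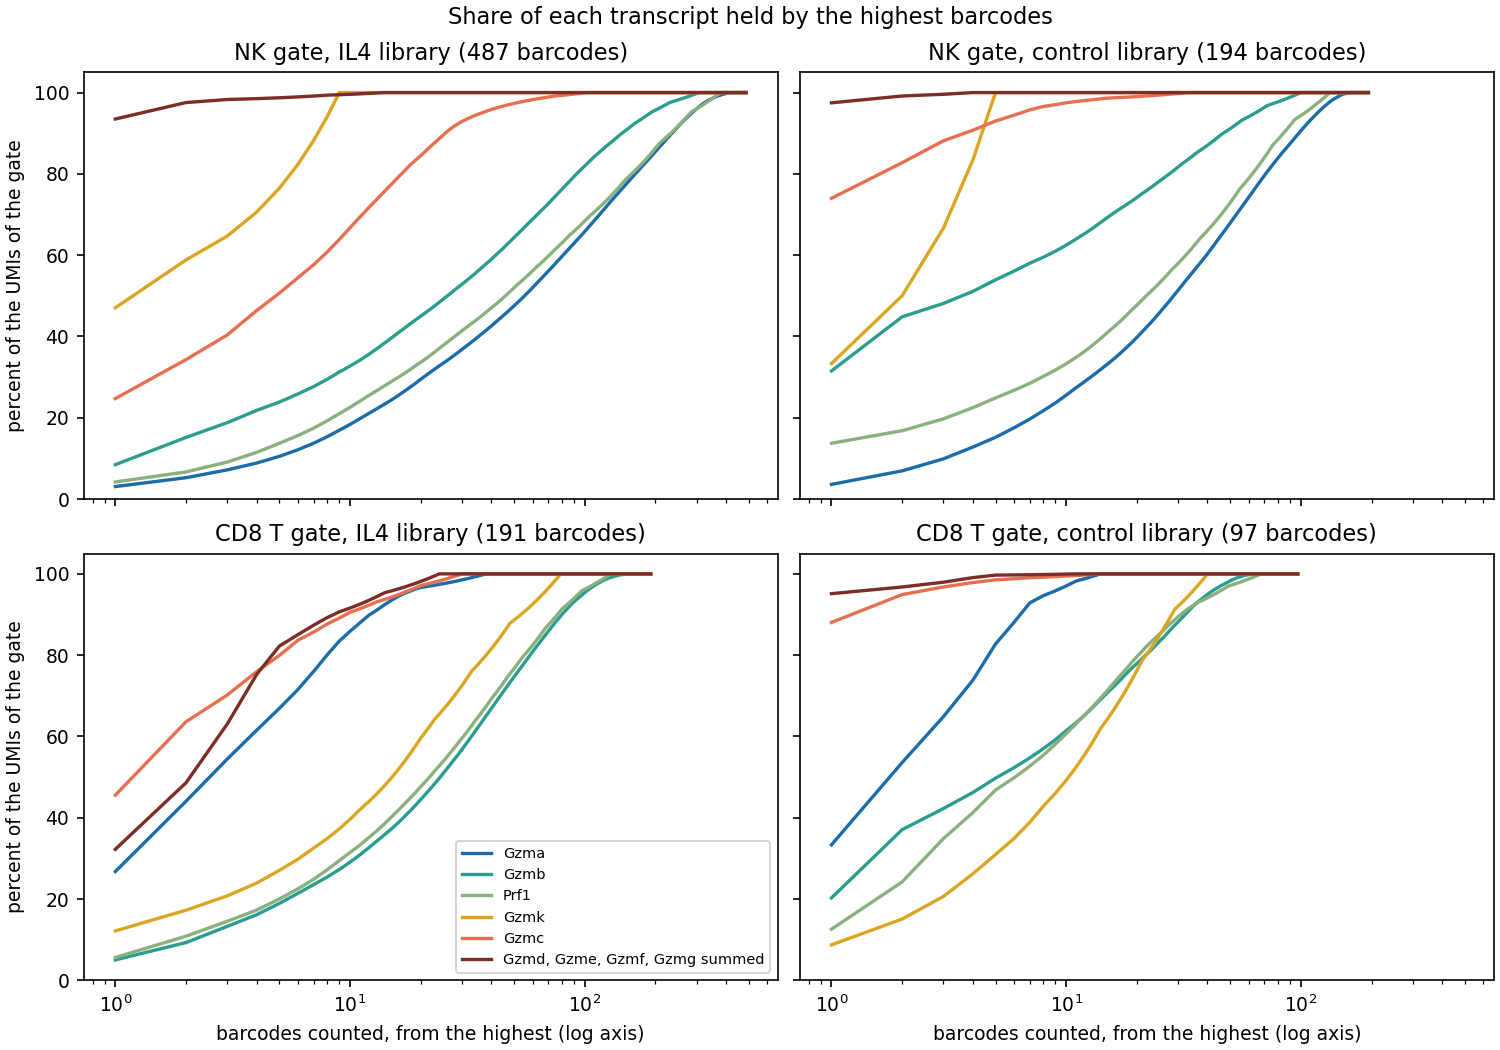
Cumulative percent of a transcript's UMIs within a gate, counting barcodes from the highest down (log axis), for NK cells (top) and CD8 T cells (bottom), with IL4 on the left and control on the right. Curves that start high are held by few barcodes: 1 control NK barcode holds 74.0% of Gzmc, whereas for Gzma the highest barcode holds 3.07% in IL4 and 3.60% in control.

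At equal depth, after thinning to 2000 UMIs per barcode, 76.4% of IL4 and 74.2% of control NK cells had a Gzma UMI, while macrophages had one in 1.61% in IL4 and 0.559% in control. Gzmb was found in 44.3% of IL4 NK cells (39.8 to 48.8%) and 32.5% of control NK cells (25.9 to 39.6%), against 63.0% in IL4 and 51.5% in control before thinning at median depths of 6584 UMIs in IL4 and 6808 UMIs in control. Gzmb was found in 63.2% of IL4 CD8 T cells (55.9 to 70.0%) and 47.4% of control CD8 T cells (37.2 to 57.8%), against 78.5% in IL4 and 64.9% in control before thinning at median depths of 10062 UMIs in IL4 and 14485 UMIs in control. Prf1 was found in 46.1% of NK cells in IL4 and 35.6% in control. In CD8 T cells it was found in 33.7% in IL4 and 23.7% in control, the other way from its CPM. Some draws made again for the splits below gave higher control shares of Prf1. In the cycling split, 48.1% of IL4 and 47.1% of control NK cells that were not cycling had it, and 40 of 82 IL4 and 9 of 20 control cycling ones. Among CD8 T cells with Pdcd1 it was 35.1% in IL4 and 35.7% in control, and without Pdcd1 30.2% in IL4 and 29.1% in control. The Prf1 gaps thus depend on the draw, and no order is read from them in either gate. Gzmc was found in 12.5% of NK cells in IL4 and 8.25% in control, and the top 10% of NK barcodes held 97.2% of its UMIs in IL4 and 99.0% in control. In the draw over whole gates, the library intervals overlap for Gzma, Gzmc, Gzmk and Prf1 in both gates. They also overlap for Gzmb in CD8 T cells. For Gzmb in NK cells the IL4 interval starts at 39.8% and the control interval ends at 39.6%. The random draws made again for the splits below gave other Gzmb counts, so this narrow gap is not read as a difference. Thinning left out 8 IL4 NK barcodes and 1 IL4 CD8 T barcode, and 0 in control.

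**Figure D4:**
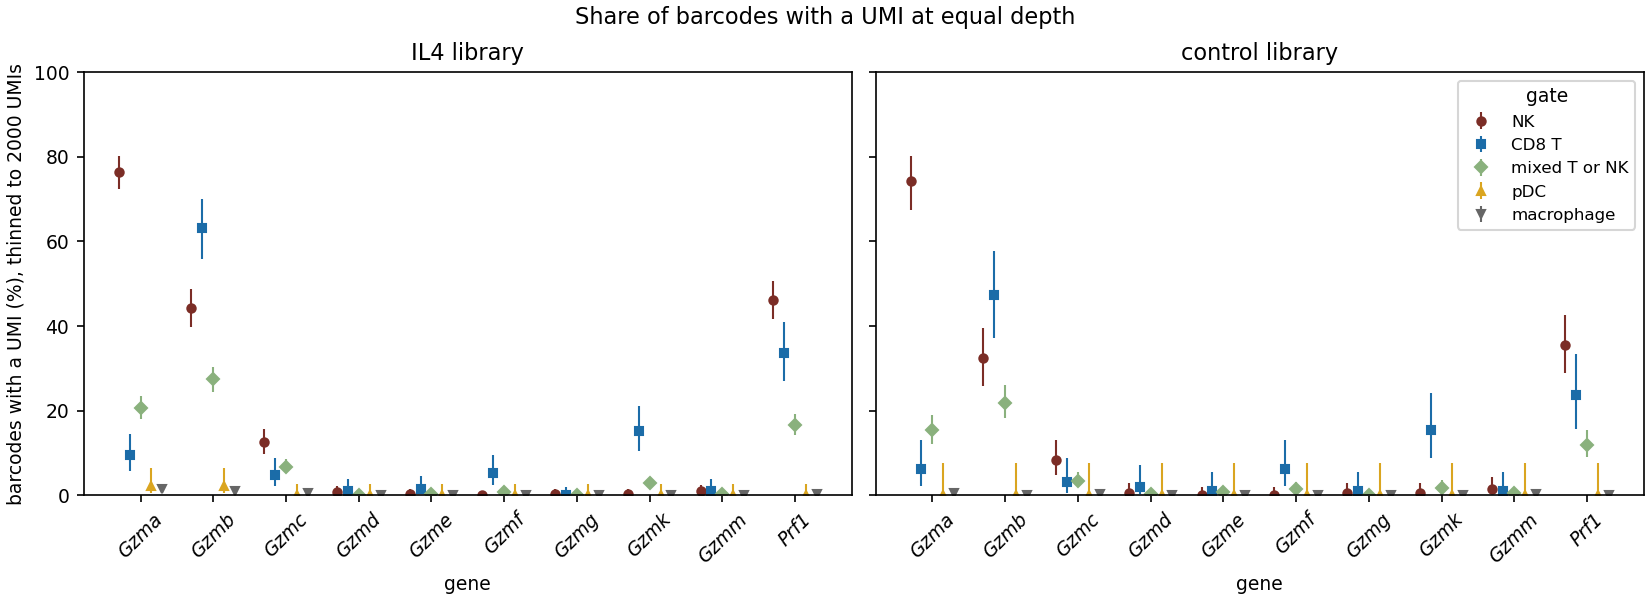
Percent of barcodes with a UMI of each member after thinning to 2000 UMIs, with exact 95% Clopper-Pearson intervals, for 5 gates, IL4 on the left and control on the right. Gzma is carried by 76.4% of NK cells in IL4 and 74.2% in control and Gzmk by 15.3% of CD8 T cells in IL4 and 15.5% in control, while macrophages stay at or below 1.61% for every member.

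Some pairs of members were found together in more cells than the product of their single shares, and others in fewer. At equal depth 37.8% of IL4 and 27.8% of control NK cells had both Gzma and Gzmb, where the product of the single shares is 33.8% in IL4 and 24.1% in control. Gzmb and Prf1 were found together in 27.9% of IL4 and 18.6% of control CD8 T cells, where the product is 21.3% in IL4 and 11.2% in control. Gzma and Gzmc were found together in 9.39% of IL4 and 4.64% of control NK cells, where the product is 9.57% in IL4 and 6.12% in control. For Gzmb and Gzmk in CD8 T cells the shares were 8.42% in IL4 and 11.3% in control, with products of 9.64% in IL4 and 7.33% in control. Gzma and Prf1 were found together in 2.63% of IL4 and 0 of 97 control CD8 T cells, with products of 3.19% in IL4 and 1.47% in control. All 9 IL4 and all 3 control CD8 T cells with a thinned Gzmc UMI also had Gzmb. No member was found in 10.9% of NK cells in IL4 and 14.9% in control and in 24.7% of CD8 T cells in IL4 and 41.2% in control.

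Summed levels of Gzmb and Gzmc in NK cells were higher with Klrg1, but Gzmb did not go with every marker tried. Splits by Itga1, Itga2, Itgam and Cd27 gave lower thinned Gzmb shares with the gene in IL4. They were 25.0% with and 42.3% without Itga1, 38.6% and 42.4% for Itga2, 38.2% and 40.4% for Itgam, and 34.5% and 43.4% for Cd27. In control the share was lower with Itga1 and higher with Itga2, Itgam and Cd27. The intervals of these shares with and without each gene overlap in both libraries. Summed Gzmb in IL4 was higher with Itga1 (962 CPM with and 726 CPM without), Itga2 (809 and 728 CPM) and Itgam (1038 and 566 CPM). For Cd27 it was 753 and 758 CPM. In control it was lower with each gene, at 288 and 585 CPM for Itga1 and 353 and 667 CPM for Itga2. For Itgam it was 351 and 677 CPM, and for Cd27 272 and 746 CPM. In IL4, 1 barcode held 52.4% of the Gzmb with Itga1. In control, 1 held 34.6% to 43.9% of that without each gene. NK cells with a UMI of Klrg1, an inhibitory receptor of mature and activated cells, had Gzmb at 1556 CPM in IL4 and 1689.8 CPM in control, against 467 CPM in IL4 and 259 CPM in control among NK cells without one. Gzmc was at 2388 CPM in IL4 and 3619 CPM in control with Klrg1 and at 182 CPM in IL4 and 125 CPM in control without. In the control cells with Klrg1, 1 of the 22 barcodes held 84.6% of the Gzmc, and the level without it was 635 CPM. A single barcode also held 51.6% of their Gzmb, and without the highest barcodes Gzmb with Klrg1 was at 1369.9 CPM in IL4 and 933 CPM in control, so the order of the libraries turned. Gzma differed less, at 3730.2 CPM in IL4 and 2036 CPM in control with Klrg1 and 1922 CPM in IL4 and 1738 CPM in control without. Barcodes with Klrg1 were deeper, at medians of 12084 UMIs in IL4 and 12520.5 in control with Klrg1, and 6172 in IL4 and 6490.5 in control without, and were split again after thinning, by a Klrg1 UMI among the 2000 kept. Gzmb was then found in 77.4% of 31 IL4 NK cells with Klrg1 and 38.2% of 448 without. In control it was found in 3 of 6 with Klrg1, with an interval of 11.8 to 88.2%, and in 28.2% of 188 without.

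Among CD8 T cells the summed levels of Gzmb and Prf1 were higher in those with Havcr2, the gene of the checkpoint receptor TIM-3. Gzmb was at 1555 CPM in IL4 and 1127 CPM in control with a Havcr2 UMI, and at 270.1 CPM in IL4 and 245 CPM in control without. Prf1 was at 352 CPM in IL4 and 469 CPM in control with it and at 57.6 CPM in IL4 and 113 CPM in control without. Cells with a UMI of Tcf7, the transcription factor of less differentiated T cells, had Gzmb at 232 CPM in IL4 and 198 CPM in control, against 1502 CPM in IL4 and 1146 CPM in control among cells without one. Split by Pdcd1, Gzmb was at 1398 CPM in IL4 and 1062 CPM in control with it. Without Pdcd1 it was at 642 CPM in IL4 and 291 CPM in control. The thinned Gzmb shares with and without Pdcd1 had overlapping intervals in both libraries. Gzmk, in the same split by Havcr2, was at 102 CPM in IL4 and 85.6 CPM in control with Havcr2 and 85.4 CPM in IL4 and 56.6 CPM in control without. Barcodes with Havcr2 made up 130 of the 191 IL4 and 63 of the 97 control CD8 T cells, and were deeper (medians of 14128 UMIs in IL4 and 18166 in control) than those without (6557 in IL4 and 7077 in control). Split again after thinning, Gzmb was found in 79.3% of IL4 cells with Havcr2 and 56.1% of those without, and in 70.6% of control cells with it and 37.5% of those without. The control intervals overlap, at 44.0 to 89.7% with Havcr2 and 26.9 to 49.0% without. Prf1 was found in 43.1% of IL4 cells with Havcr2 (30.2 to 56.8%) and 25.8% of those without (18.5 to 34.1%), with overlapping intervals. In control it was found in 35.3% of 17 cells with Havcr2 (14.2 to 61.7%) and in 24 of 80 without (20.3 to 41.3%), and these intervals overlap.

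Cycling cells, with at least 3 UMIs of 6 cell-cycle genes, made up 13.1% of IL4 and 8.25% of control NK cells. Cycling NK cells had Gzmb at 1219 CPM in IL4 and 669 CPM in control, against 578 CPM in IL4 and 512 CPM in control among the others. In control, 1 of the 16 cycling barcodes held 68.4% of that Gzmb, and without the highest barcode of each side the control level was 235 CPM in cycling cells and 321 CPM in the others, so the order turned. The same step in IL4 gave 1028 CPM in cycling cells and 549 CPM in the others. Cycling barcodes were deeper, at medians of 16043 UMIs in IL4 and 17153 in control, against 6129 in IL4 and 6490.5 in control for the others. After thinning, Gzmb was found in 46.3% of cycling and 43.3% of other NK cells in IL4, and in 25.0% of cycling and 30.5% of other NK cells in control. Among CD8 T cells, of which 44.5% in IL4 and 46.4% in control were cycling, Gzmb was at 1304 CPM in IL4 and 1163 CPM in control among cycling cells and 1307 CPM in IL4 and 551 CPM in control among the others. After thinning, Gzmb was found in 72.3% of cycling and 55.1% of other CD8 T cells in IL4, and in 51.2% of cycling and 46.4% of other CD8 T cells in control. The part of cycling in the differences between the libraries was not tested.

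**Figure D5:**
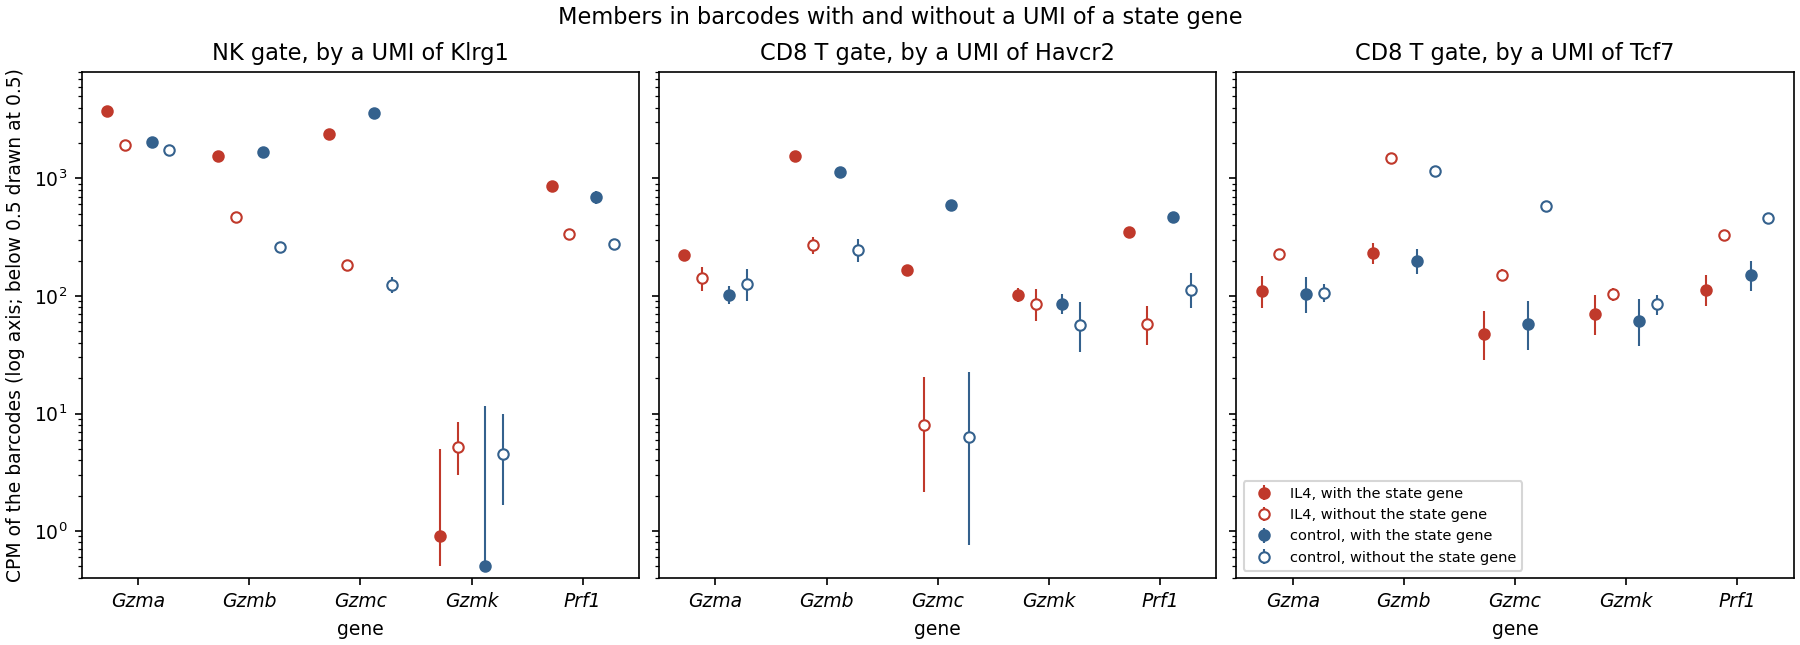
CPM of 5 members in barcodes with (filled) and without (open) a UMI of Klrg1 in NK cells and of Havcr2 or Tcf7 in CD8 T cells, IL4 in red left of control in blue, log axis, with exact 95% Poisson intervals. Gzmb lies higher with Klrg1 and with Havcr2 and lower with Tcf7 in both libraries, for example at 1556 CPM with Klrg1 and 467 CPM without in IL4.

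Profiles over 13 gates in both libraries (26 profiles, which share their 2 libraries) were compared among 11167 genes, and the most alike are named as a description. Gzma was most like Eomes, a transcription factor of NK and effector T cells (Pearson r = 0.959), followed by Adamts14, Nrarp, Tmprss6 and Camk2n1. Gzmb was most like Nrgn (0.972), Sh2d1a, Cd27, Nkg7 and Abcb9. Gzmc was most like Klrg1 (0.967), Sh2d1a, Nkg7, Ctla2a and Camk2n1. Gzmk was most like Nrn1 (0.970), Galnt18, Chst2 and the CD3 chains Cd3g and Cd3d, and Prf1 like Nkg7, a granule membrane protein (0.976), Camk2n1, Sh2d2a, Sh2d1a and Klrc1.

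Genes that work with granzymes mostly differed little between the libraries. Of 9 genes for the granule matrix and protease processing, 0 passed 1.5-fold in either direction in NK or in CD8 T cells. Ctsc, the peptidase that activates granzymes, was at 126 CPM in IL4 and 138 CPM in control among NK cells and 142 CPM in IL4 and 184 CPM in control among CD8 T cells. Of 10 genes counted for transport and exocytosis, 0 passed in NK cells and only Vamp7, a vesicle fusion protein, was lower in CD8 T cells (18.1 CPM in IL4 and 38.6 CPM in control). Lyst, which shapes lytic granules, was at 154 CPM in IL4 and 212 CPM in control among NK cells.

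Serpins are inhibitors that protect cells from proteases. In NK cells 2 of 7 were higher and 0 lower: Serpinb9b, an inhibitor of granzyme M in mice, at 47.7 CPM in IL4 and 15.9 CPM in control (3.01-fold, 1.99 to 4.72), and Serpinb1a at 7.91 CPM in IL4 and 1.83 CPM in control (4.32-fold, 1.36 to 22.0, from 33 UMIs in IL4 and 3 in control). A single control barcode held 42.3% of the Serpinb9b UMIs, and the fold without the highest barcodes was 4.80. Serpinb1a was also higher in CD8 T cells (15.4 CPM in IL4 and 2.53 CPM in control) as 1 of 7. Serpinb9b was at 46.7 CPM in IL4 and 65.2 CPM in control there, with 83.5% of the control UMIs in 1 barcode, and its fold was 3.72 without the highest barcodes.

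Of 10 death ligands and effector cytokines in NK cells, 0 were higher and 1 lower, Tnfsf10 (the death ligand TRAIL, 12.5 CPM in IL4 and 22.0 CPM in control). Fasl, the ligand of the death receptor Fas, was at 104 CPM in IL4 and 76.3 CPM in control. In CD8 T cells Tnf was higher at 125 CPM in IL4 and 55.1 CPM in control (2.26-fold), and Xcl1, a chemokine that attracts cross-presenting dendritic cells, was lower at 153 CPM in IL4 and 446 CPM in control (0.342-fold), as was Tnfsf10 at 30.9 CPM in IL4 and 53.2 CPM in control, among 9 counted. Of 23 transcription factors and cytokine receptors, Bcl6 (143 CPM in IL4 and 234 CPM in control) and Irf4 (3.83 CPM in IL4 and 6.71 CPM in control) were lower in NK cells and 0 higher. Irf4 had only 16 UMIs in IL4 and 11 in control, and its fold interval of 0.249 to 1.36 includes 1. Tbx21, the gene of T-bet, was at 201 CPM in IL4 and 292 CPM in control among NK cells. Both Tbx21 (168 CPM in IL4 and 111 CPM in control) and Il12rb2, a chain of the IL-12 receptor (125 CPM in IL4 and 74.7 CPM in control), were higher in CD8 T cells, and Tcf7 (35.9 CPM in IL4 and 65.2 CPM in control) lower. Other granule proteases were almost absent: of 14, only Cma1 could be counted in NK cells, at 10.3 CPM in IL4 and 7.93 CPM in control, and 0 in CD8 T cells. Each list's count stands beside the share of all genes past 1.5-fold in the same gate, given above for NK and CD8 T cells.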

How the data were processed

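Raw UMI counts of every gene in each barcode are what the authors deposited. Per the file headers and the submitters' processing notes, Cell Ranger 7.2.0 and mm10 were used, and no source used here names the annotation release. The deposited tables hold barcodes of at least 500 UMIs, with 133151428 UMIs in IL4 and 95499107 in control. A barcode was kept if it had 500 or more UMIs, 250 or more genes and no more than 10% of its UMIs from mitochondrial genes. A barcode was a T or NK cell with at least 3 UMIs of 4 T or 7 NK markers, by the larger sum. T cells were Foxp3 T with a Foxp3 UMI, CD8 T with Cd8a or Cd8b1 and no Cd4, and otherwise other T. Further gates used fixed marker minima, in a fixed order.

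UMIs were summed per gate and library and scaled to CPM, without division by transcript length, so levels are compared within a gene. Intervals are exact Poisson, Clopper-Pearson or conditional binomial at 95%. Ratios are log2 values with 1 CPM added to the IL4 level and to the control level before division, and genes with at least 20 UMIs were counted as higher or lower at 1.5-fold. A count of 0 allows up to 3 counts. PCR reads collapsed to UMIs, and intervals cover counting error only. The ratio and call code was tested on simulated data. Python 3.11.15 with numpy 2.4.6 was used.

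All 10 members are named. For 5 of them the 5 genes with the highest Pearson r of profiles are named too, over gates with at least 30 barcodes and genes with at least 200 UMIs, without mitochondrial, ribosomal, receptor, immunoglobulin and predicted genes. Per gene list up to 4 genes with the largest absolute ratio are given. The members and lists were chosen with earlier results of these data known. Promoters come from RefSeq (all 10 matched). Alternatives to filters, gates, scaling, pseudocount and single barcodes were tried, and thinning of barcodes and exclusive gates without the highest barcode were added after seeing the data. The window lengths of 80 and 100 bases were chosen after seeing that the number of shared windows depends on the length.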

Additional observations from a re-analysis of the deposited data

Results flagged for a closer look

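For Gzme, Gzmg and Prf1 the log2 ratio of IL4 over control pointed up in NK cells and down in CD8 T cells, with fold intervals that left out 1 in both gates. The difference between the gates was not tested, since each group is 1 library. The NK ratio minus the CD8 T ratio was 2.59 for Gzme, 8.25 for Gzmg and 0.84 for Prf1. Gzmm pointed the same ways, with ratios of 0.42 in NK cells and -0.48 in CD8 T cells, but its fold intervals include 1 in both gates (0.651 to 3.33 and 0.259 to 1.76). For Gzme and Gzmg most or all UMIs lay in single barcodes, except for Gzme in IL4 CD8 T cells, where 1 barcode held 20 of 40. For Prf1 the highest barcode held 4.20% of UMIs in IL4 and 13.7% in control in NK cells, and 5.63% in IL4 and 12.6% in control in CD8 T cells. After thinning, the CD8 T ratio of Prf1 was -0.02, so its downward direction was not seen at equal depth. In mixed barcodes the Prf1 fold was 1.03.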

How the results depend on the processing

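No paired analysis was possible because each group is 1 library and no test was made. All ratios are log2, IL4 over control, and numbers of members at 1.5-fold were 2 higher and 0 lower in NK cells and 1 higher and 5 lower in CD8 T cells. In NK cells the number higher was 0 with exclusive T and NK gates (4 lower), 4 without the highest barcode per gene, 5 in Xist-only barcodes, 4 in Y-only barcodes and 1 with exclusive gates and without the highest barcode. In CD8 T cells the number higher was 3 with exclusive gates, 2 with barcodes weighted equally, 3 without the highest barcode, 2 after thinning and 3 with exclusive gates and without the highest barcode; the number lower was 2 with exclusive gates, 0 without the highest barcode, 2 in Y-only barcodes, 3 after thinning and 1 with exclusive gates and without the highest barcode. Shares of all genes past 1.5-fold are given above for the main gates, the exclusive gates and the step without the highest barcode. They were not taken for the Xist-only, Y-only, equal-weight, thinned and joint settings, so those counts have no background beside them. The Y-only gates held only 51 IL4 and 54 control NK barcodes, and 30 IL4 and 29 control CD8 T barcodes. The share of member UMIs in T, NK and mixed barcodes was 95.2% in IL4 and 96.3% in control. In IL4 it was 96.0% at 2 marker UMIs, 92.6% at 5, 47.3% with exclusive gates, 90.0% with equal weights, 94.8% in Xist-only barcodes, 97.3% in Y-only ones, 92.6% after thinning, and 47.9% with exclusive gates and without the highest barcode. In control it was 96.8% at 2 marker UMIs, 95.6% at 5, 55.1% with exclusive gates, 91.9% with equal weights, 95.9% without the highest barcode, 95.4% in Xist-only barcodes, 96.7% in Y-only ones, 93.6% after thinning, and 56.5% with exclusive gates and without the highest barcode. Exclusive gates leave barcodes with both marker sets ungated, which lowers the share by construction. Ratios past 1.5-fold that turned were, with exclusive gates, Gzme -2.97 and Gzmg -4.89 in NK cells, Gzmc 0.98 in CD8 T cells and Gzmb -0.68, Gzmc -3.77 and Prf1 -2.36 in other T cells; with equal weights, Gzma 0.01 in other T cells; without the highest barcode, Gzmc 0.36 and Gzme 1.06 in CD8 T cells and Gzmc -0.05 in other T cells; in Xist-only barcodes, Gzmb -0.22, Gzmc -3.44 and Prf1 -1.94 in other T cells; in Y-only barcodes, Gzma -1.33, Gzmc 0.38 and Gzmf 1.22 in CD8 T cells; and with exclusive gates and without the highest barcode, Gzmc 0.77 in CD8 T cells. Of the ratios within 1.5-fold, 6 changed sign under some setting: Gzmc (up to 1.55) and Gzmd (up to 3.81) in NK cells, Gzmk (down to -0.91) and Gzmm (up to 0.03) in CD8 T cells, and Gzmc (up to 0.46) and Prf1 (down to -0.34) in the Foxp3 T gate. Beyond what is named, the cause was not tested. Thinning and the joint setting were chosen after seeing the data. Counting error limits every member under 20 UMIs. Each of the 31 ratios stayed within its counting interval without a barcode filter, with a higher UMI minimum per barcode, at 2 or 5 marker UMIs, at a pseudocount of 0.1 CPM, with centring, and without shared barcodes. Without the myeloid limit, 11 ratios left their counting interval and 20 stayed within it. At a myeloid limit of 10 per 10000, 5 left it and 24 stayed.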
